A study of Homo sapiens with 10 samples.

Results

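The transcripts described here are 10 noncoding host genes of small nucleolar RNAs (snoRNAs), namely GAS5, SNHG1, SNHG5, SNHG6, SNHG7, SNHG8, SNHG12, SNHG15, SNHG16 and ZFAS1. The rule that chose them is a list of names and uses no measured value, although earlier results of these data were known when it was drawn up. All 10 were found among the 18144 genes listed in the expression table. The libraries came from 3D spheroids of PC-3, an established human prostate cancer line labelled as wild type in genotype that was derived from a bone metastasis. Topotecan, a topoisomerase I poison, was given in 2 ways with the same total weekly dose. CONV-TOPO, labelled conventional, was a bolus at the start, and EE-TOPO, the extended exposure that the labels call METRO, was the same amount in daily fractions. Untreated control spheroids received medium alone.

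RNA was measured in untreated spheroids on days 0, 3 and 7 and in each regimen on days 3 and 7, with 1 library for every treatment and day. The study's text speaks of weeks of exposure, whereas the sample labels give days, and the days are used here. Medium was exchanged on day 3, and whether the day-3 spheroids were collected before or after that exchange is not given in the sources used here. The depth recovered from the table ran from 15.02 to 22.46 M reads (M, 1000000) per library. Among PC-3 markers, KRT8, KRT18, EPCAM, CDH1, VIM and CD44 were all present and summed to 2780 to 3781 CPM (read counts scaled to a total of 1 M in each library) in every library. TMPRSS2, a prostate gene fixed in a list of those low or absent in PC-3, reached 71.4 to 149 CPM. The 6 markers of other cell types summed to 148 to 218 CPM, most of it from CD68 (65.7 to 128 CPM) and COL1A1 (46.6 to 83.0 CPM). Against untreated day 7, CD68 was at 2.13-fold in EE-TOPO and 2.05-fold in CONV-TOPO, COL1A1 at 0.656 and 0.685, and PECAM1 at 0.674 and 1.13. PTPRC and COL1A2, which mark leukocytes and fibroblasts, did not exceed 0.489 and 0.601 CPM.

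snoRNAs guide chemical modification of ribosomal and spliceosomal RNA, with box C/D snoRNAs directing methylation of the ribose and box H/ACA snoRNAs directing pseudouridylation. In human cells most of them lie in introns and are released when the host transcript is spliced and the lariat is opened. The spliced host RNA of the noncoding hosts is exported, carries short open reading frames and is degraded by nonsense-mediated decay, so its steady level follows both transcription and decay. Many hosts, like ribosomal protein genes, begin with a terminal oligopyrimidine tract, which ties their translation to growth signalling. The libraries measure the spliced host and not the snoRNAs, which are too short for this protocol, and bulk RNA cannot tell fewer cells with a transcript from less transcript per cell.

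The members fell into 3 kinds by the snoRNAs that RefSeq places inside them. The box C/D hosts were SNHG1 with SNORD22 and SNORD25 to SNORD31, SNHG5 with SNORD50A and SNORD50B, SNHG6 with SNORD87, SNHG16 with SNORD1A, SNORD1B and SNORD1C, and ZFAS1 with SNORD12, SNORD12B and SNORD12C. SNHG7 with SNORA17A and SNORA17B, SNHG8 with SNORA24 and SNHG15 with SNORA9 carried box H/ACA snoRNAs alone. GAS5 held 10 box C/D snoRNAs and SNORA103, and SNHG12 held SNORD99 beside SNORA16A, SNORA44 and SNORA61. On hg38, as the table lists them, GAS5 lay on chromosome 1 from 173863899 to 173868883, SNHG12 on chromosome 1 from 28578538 to 28582984, SNHG8 on chromosome 4 from 118278762 to 118279824, SNHG5 on chromosome 6 from 85677007 to 85678734 and SNHG15 on chromosome 7 from 44983023 to 44986697. SNHG7 lay on chromosome 9 from 136724594 to 136728185, SNHG1 on chromosome 11 from 62851978 to 62855886, SNHG16 on chromosome 17 from 76557764 to 76565349 and ZFAS1 on chromosome 20 from 49278178 to 49289259. Their spliced length ran from 460 bases for SNHG6 to 2437 bases for SNHG16 (GENCODE release 44). It was taken from the annotated transcript of median length within the listed span of each gene. GAS5, SNHG6, SNHG7 and SNHG12 overlapped another gene, and the kit did not mark strand, so reads in those stretches cannot be assigned to 1 of the genes.

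The promoters are shown because host genes of this class are known for sharply placed start sites. RefSeq promoter windows (GRCh38.p14, 250 bases before to 50 bases after the start) were available for 8 of the 10 members, and 7 are printed from 50 bases before the start to 50 bases from it, 5′ to 3′ on the strand of the gene. Capitals mark TATAA where it begins 40 to 20 bases before the start.
SNHG5, chr6:85678684-85678783, minus strand: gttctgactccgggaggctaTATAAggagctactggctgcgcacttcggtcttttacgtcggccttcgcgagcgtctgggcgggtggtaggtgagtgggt
SNHG7, chr9:136728135-136728234, minus strand: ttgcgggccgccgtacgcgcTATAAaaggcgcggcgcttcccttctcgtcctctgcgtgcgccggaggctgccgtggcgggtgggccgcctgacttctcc
SNHG8, chr4:118278712-118278811, plus strand: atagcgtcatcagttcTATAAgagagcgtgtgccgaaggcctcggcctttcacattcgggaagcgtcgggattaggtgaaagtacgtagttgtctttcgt
SNHG12, chr1:28581824-28581923, minus strand: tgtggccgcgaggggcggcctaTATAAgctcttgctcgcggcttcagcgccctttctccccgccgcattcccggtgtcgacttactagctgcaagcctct
ZFAS1, chr20:49278592-49278691, plus strand: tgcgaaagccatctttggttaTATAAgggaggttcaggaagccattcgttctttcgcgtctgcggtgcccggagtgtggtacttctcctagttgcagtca
SNHG1, chr11:62855836-62855935, minus strand: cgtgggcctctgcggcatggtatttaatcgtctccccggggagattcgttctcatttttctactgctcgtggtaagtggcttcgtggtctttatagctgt
SNHG16, chr17:76557714-76557813, plus strand: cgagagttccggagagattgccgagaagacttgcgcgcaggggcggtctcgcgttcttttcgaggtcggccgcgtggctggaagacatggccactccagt
TATAA stood at that place in 5 of the 8 members with a window, SNHG5, SNHG7, SNHG8, SNHG12 and ZFAS1, and in 3.89% of 34943 RefSeq windows. Anywhere in the window on either strand, TATAA was found in 6 of 8 members and 20.5% of all windows, CCAAT in 2 members and 34.6%, and CACGTG in 1 member and 7.23%. A run of at least 6 pyrimidines beginning with C within 5 bases of the start was found in SNHG8, SNHG12 and SNHG16 and in 11.1% of all windows. It began at offset -1 from the RefSeq start in SNHG12, -5 in SNHG8 and 5 in SNHG16, where negative means before the start. Shorter runs were not counted, and whether any run forms the 5′ end of the RNA, as a terminal oligopyrimidine tract does, was not tested. These letters were searched after the sequences had been seen and describe the windows alone. The RefSeq start of GAS5 lay 162 bases, that of ZFAS1 464 bases and that of SNHG12 1111 bases from the start in the table.

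Levels are given as CPM divided by the TMM factor of the library, which sets the bulk of genes equal between libraries and is called scaled CPM below. Per kilobase of spliced RNA, ZFAS1 and SNHG16 were the most abundant members, with means over the 7 libraries of 129 and 128 scaled CPM per kilobase, and their ranges across libraries overlapped almost entirely. SNHG6 followed at 90.3, SNHG8 at 32.9 and SNHG1 at 27.99 scaled CPM per kilobase. SNHG15 at 18.1, SNHG12 at 14.4 and SNHG7 at 11.03 came next, and SNHG5 at 5.75 and GAS5 at 4.89 were lowest. Neighbours in this order did not differ beyond their ranges across libraries, except that the lowest SNHG6 library, at 63.3, lay above the highest SNHG8 library, at 53.6. The order also depends on the annotated length used. Which form is expressed in these cells was not determined, and the ranges do not cover that choice. The members varied by a factor of 1.86 for SNHG7 to 3.62 for SNHG12 between their lowest and highest library.

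**Figure D1:**
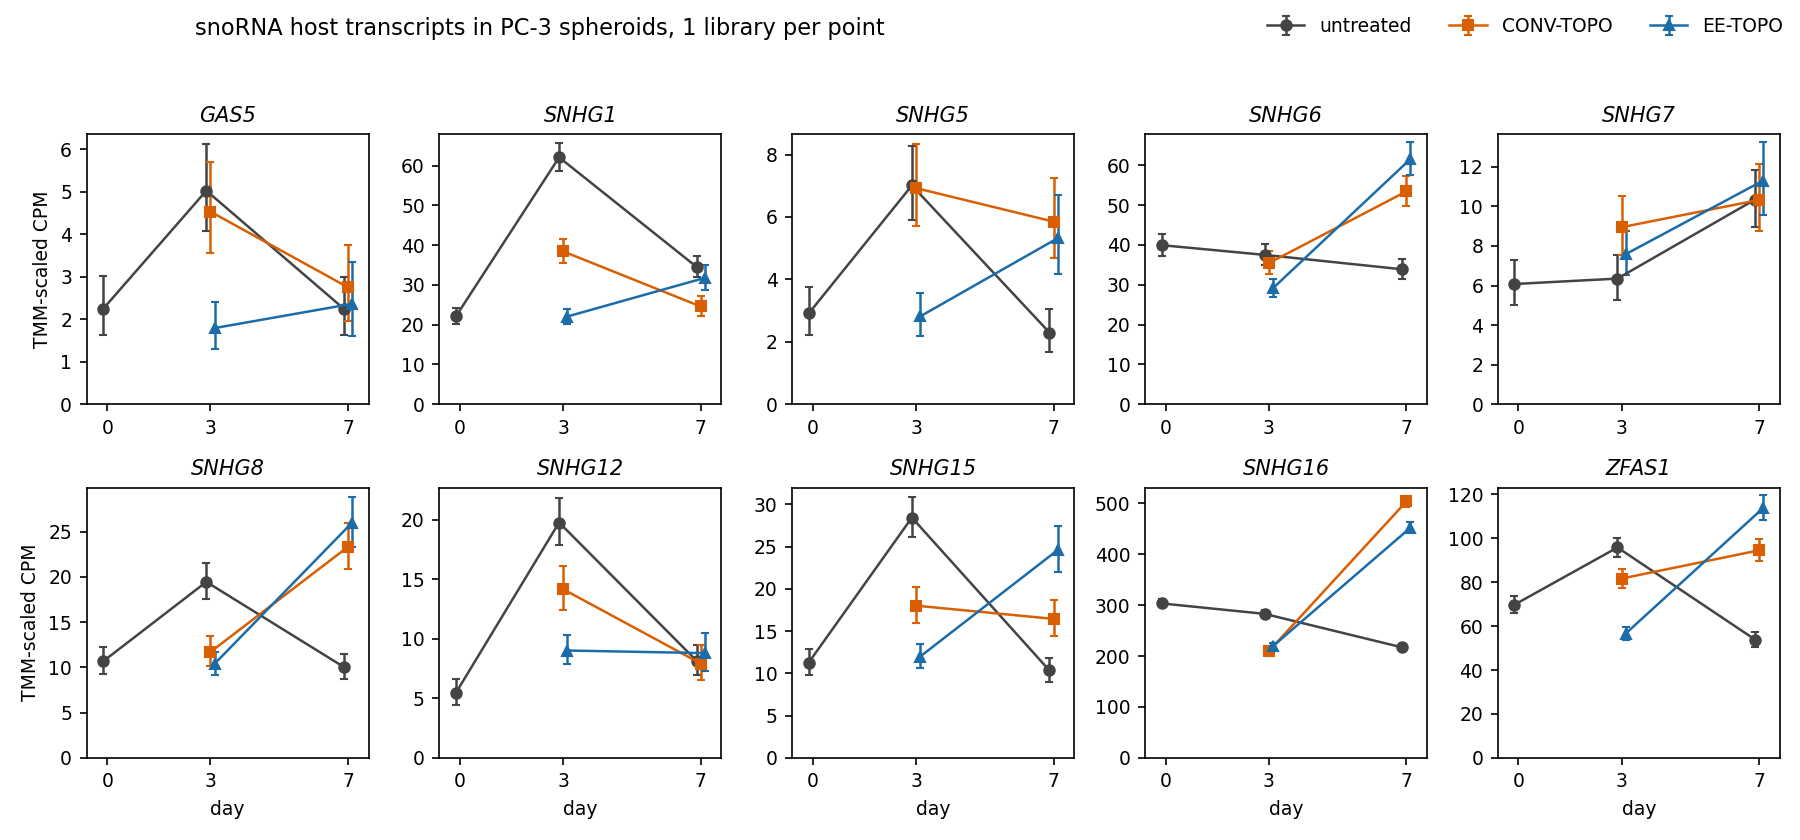
TMM-scaled CPM (y axis, from 0, a separate scale for each gene) of the 10 snoRNA host transcripts against day of culture (x axis) in untreated, CONV-TOPO and EE-TOPO spheroids. Each point is 1 library and bars are exact 95% Poisson intervals of its reads, which cover counting error only. Untreated day 3 is the highest library for GAS5, SNHG1, SNHG5, SNHG12 and SNHG15, and the day-7 topotecan libraries are the 2 highest for SNHG6, SNHG8 and SNHG16.

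Untreated spheroids were compared over time first, because every treated library is read against them. SNHG1, the host from which U22 was first described, stood at 22.1 scaled CPM on day 0, 62.1 on day 3 and 34.5 on day 7. SNHG12 stood at 5.46, 19.8 and 8.14 scaled CPM on the same days. SNHG15, a short-lived transcript known to respond to stress, stood at 11.3, 28.4 and 10.3 scaled CPM. All of these were highest on day 3 by more than the counting error, and SNHG15 was back at its day-0 level on day 7 while SNHG1 and SNHG12 were not. GAS5, named for its rise in growth-arrested cells, was at 2.25, 5.03 and 2.25 scaled CPM. SNHG5, which carries the U50 snoRNAs, was at 2.91, 7.01 and 2.30 scaled CPM, and SNHG8 was at 10.7, 19.5 and 10.04. ZFAS1, first described in breast tissue, moved less, with 69.7, 95.8 and 53.9 scaled CPM. The remaining 3 had no day-3 maximum: SNHG6 was at 39.9, 37.5 and 33.9 scaled CPM, SNHG7 was at 6.08, 6.35 and 10.3, and SNHG16, the most strongly counted member with 3412 to 7306 reads per library, was at 303, 283 and 217.

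In counts, 6 of the 10 members (GAS5, SNHG1, SNHG5, SNHG8, SNHG12 and SNHG15) were at least 1.5-fold higher on day 3 than on both day 0 and day 7, where 2.51% of the 11332 genes with a mean of at least 5 CPM were. The day-3 to day-0 ratio was 3.62 for SNHG12 (95% interval 2.91 to 4.52), 2.81 for SNHG1 (2.51 to 3.14) and 2.52 for SNHG15 (2.15 to 2.96). GAS5 and SNHG5, with means under 5 CPM, are outside the 11332 genes, and without them 4 of 8 members did so. The median log2 ratio of the 10 members was 1.01 against -0.02 over the 11332 genes. On day 7, 7 members were at least 1.5-fold lower than on day 3 (4.49% of genes), SNHG7 was 1.63-fold higher (1.30 to 2.05), and SNHG6 and SNHG16 lay at 0.903 and 0.767 of the day-3 level. With 1 untreated library per day, these ratios have no replicate check, and their intervals cover counting error only.

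On day 3 topotecan-treated spheroids had less of 9 of the 10 members than untreated spheroids in both regimens, and the exception was SNHG7. Across the 11332 genes, 43.6% were lower in both regimens. EE-TOPO lay further below the control than CONV-TOPO. SNHG1 was at 22.1 scaled CPM in EE-TOPO and 38.4 in CONV-TOPO beside 62.1 in the control. SNHG15 was at 11.99 and 18.0 beside 28.4, and SNHG12 at 9.01 and 14.2 beside 19.8 scaled CPM. In each of these, the EE-TOPO library was lowest, the control highest and the intervals of the 3 libraries did not overlap. GAS5 was at 1.79 scaled CPM in EE-TOPO and 4.53 in CONV-TOPO beside 5.03 in the control, and SNHG5 at 2.81 and 6.92 beside 7.01. For both, CONV-TOPO and control overlapped within counting error and EE-TOPO stood below them.

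As ratios to the untreated day-3 library, EE-TOPO was at 0.355 for SNHG1 (95% interval 0.321 to 0.394), 0.357 for GAS5 (0.244 to 0.514), 0.401 for SNHG5 (0.296 to 0.540), 0.421 for SNHG15 (0.365 to 0.486) and 0.456 for SNHG12 (0.385 to 0.539). SNHG8 was at 0.534 and ZFAS1 at 0.591. Thus 7 members were at least 1.5-fold lower in EE-TOPO, where 5.15% of the 11332 genes were, and 0 were as much higher, where 6.28% were. In CONV-TOPO 3 members passed the same fold, SNHG8 at 0.602 (0.503 to 0.718), SNHG1 at 0.619 (0.561 to 0.682) and SNHG15 at 0.633 (0.548 to 0.731), against 2.74% of genes. SNHG16 was lower by similar amounts in both, at 0.775 in EE-TOPO and 0.740 in CONV-TOPO. SNHG6 was at 0.777 in EE-TOPO and at 0.945 in CONV-TOPO, the latter with an interval of 0.846 to 1.06 that includes 1. SNHG7 was at 1.19 in EE-TOPO, with an interval of 0.947 to 1.51 that includes 1, and at 1.41 in CONV-TOPO (1.10 to 1.80).

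The regimens were set side by side on day 3, when EE-TOPO had received only part of its weekly amount and CONV-TOPO all of it. Schedule and amount received cannot be told apart there. EE-TOPO was at least 1.5-fold below CONV-TOPO in 5 members, where 2.10% of genes were: GAS5 at 0.396 (95% interval 0.266 to 0.582), SNHG5 at 0.406 (0.297 to 0.553), SNHG1 at 0.574 (0.511 to 0.646), SNHG12 at 0.637 (0.527 to 0.768) and SNHG15 at 0.665 (0.564 to 0.784). ZFAS1 was at 0.693 (0.643 to 0.748) and SNHG6 at 0.822 (0.735 to 0.919), whereas the intervals of SNHG7 and SNHG8 included 1. SNHG16 was the only member higher in EE-TOPO, at 1.05 (1.00 to 1.09). The members' median log2 ratio was -0.56 between the regimens, -1.02 for EE-TOPO and -0.33 for CONV-TOPO against the control, and the medians over the 11332 genes were -0.01, -0.06 and -0.03.

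The direction on day 3 depended on the control library. Against untreated day 0 in place of day 3, the members' median log2 ratio was -0.043 in EE-TOPO and 0.62 in CONV-TOPO. SNHG1 in EE-TOPO was then at 0.998 of the control (95% interval 0.878 to 1.13), and SNHG5 at 0.967 (0.671 to 1.40). In CONV-TOPO, SNHG12 was 2.59-fold, SNHG5 2.38-fold, GAS5 2.02-fold and SNHG1 1.74-fold above day 0. Of the members, SNHG16 was below day 0 in both regimens, at 0.723 and 0.690, as was SNHG6, at 0.729 and 0.887. The levels of GAS5, SNHG1, SNHG5, SNHG7, SNHG8 and SNHG15 in EE-TOPO on day 3 overlapped those of untreated day 0 within counting error.

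**Figure D2:**
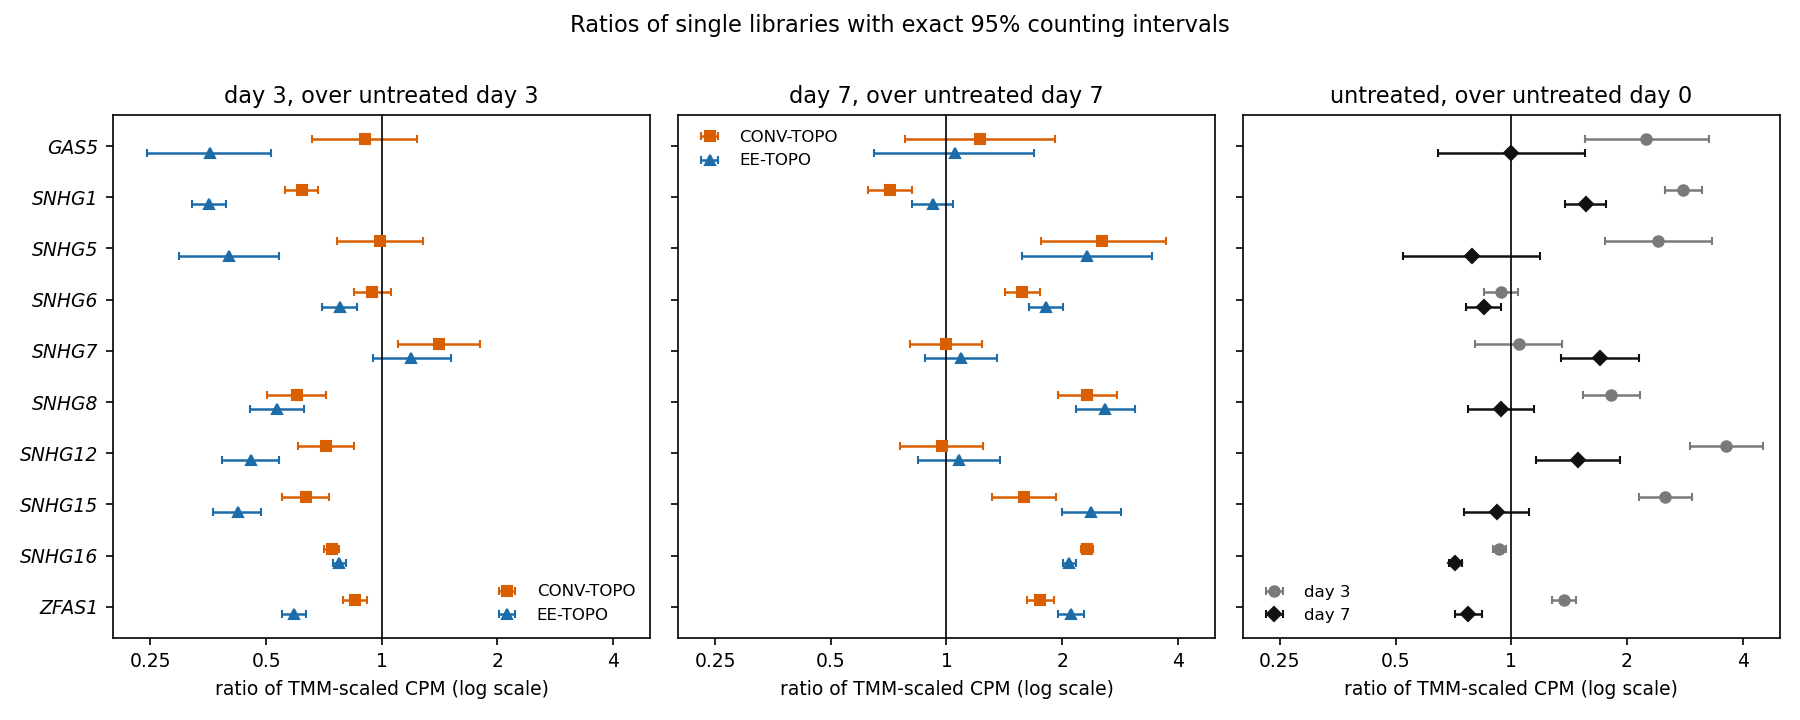
Ratios of TMM-scaled CPM between single libraries (x axis, log scale) for the 10 snoRNA host transcripts (y axis), with exact 95% intervals that cover counting error only. Treated spheroids on day 3 and day 7 are shown over the untreated library of the same day (left and middle), and untreated days 3 and 7 over untreated day 0 (right). On day 3 all EE-TOPO ratios but that of SNHG7 lie below 1, and on day 7 SNHG5, SNHG6, SNHG8, SNHG15, SNHG16 and ZFAS1 lie above 1 in both regimens.

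On day 7 the order was turned for most members. SNHG16 stood at 503 scaled CPM in CONV-TOPO and 452 in EE-TOPO beside 217 in untreated spheroids. SNHG8 stood at 23.3 and 26.0 beside 10.04, and ZFAS1 at 94.6 and 114 beside 53.9 scaled CPM. In these the treated libraries lay close to each other and far above the control, and for SNHG16 and SNHG8 they were the highest of all 7 libraries. SNHG6 was at 53.4 and 61.5 scaled CPM beside 33.9, SNHG15 at 16.4 and 24.6 beside 10.3, and SNHG5 at 5.85 and 5.32 beside 2.30. SNHG15 and SNHG5 were thus above their untreated day-7 level and not above their untreated day-3 level. SNHG7 was at 10.3 and 11.3 scaled CPM beside 10.3, SNHG12 at 7.92 and 8.79 beside 8.14, and GAS5 at 2.75 and 2.36 beside 2.25. SNHG1 was lower in CONV-TOPO, at 24.6, and at 31.8 in EE-TOPO beside 34.5 scaled CPM.

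At least 1.5-fold above untreated day 7 were 6 members in EE-TOPO, where 21.6% of the 11332 genes were, and the same 6 in CONV-TOPO, where 21.1% were. They were SNHG8 (2.59-fold in EE-TOPO, 95% interval 2.17 to 3.09, and 2.32-fold in CONV-TOPO, 1.95 to 2.78), SNHG15 (2.38-fold and 1.59-fold), SNHG5 (2.32-fold and 2.55-fold), ZFAS1 (2.11-fold and 1.75-fold), SNHG16 (2.08-fold and 2.32-fold) and SNHG6 (1.82-fold and 1.58-fold). None was as much lower, where 23.9% and 22.7% of genes were. For GAS5, SNHG7 and SNHG12 the intervals of both ratios included 1, with upper ends of 1.92 for GAS5 (CONV-TOPO) and 1.38 for SNHG12 (EE-TOPO). These ends cover counting error only and set no limit on the size of a change. SNHG1 was at 0.712 in CONV-TOPO (0.626 to 0.811). Day-7 treated libraries differed from the control across the transcriptome far more than day-3 libraries did, so these counts are to be read against a higher background.

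A linear model (limma) over the 6 libraries of days 3 and 7 tested topotecan of either regimen against untreated spheroids, with the difference between the regimens as its error and the lone untreated library of each day assumed to vary alike. On day 7 it called 5 of the 10 members higher and 0 lower at an adjusted p under 0.05, where 38.8% of the 14836 genes tested were called, 18.6% higher and 20.1% lower. The log2 effects were 1.13 for SNHG16 (SE 0.14, adjusted p = 0.000623), 1.22 for SNHG8 (SE 0.22, adjusted p = 0.00292), 0.93 for ZFAS1 (SE 0.21, adjusted p = 0.00884), 0.74 for SNHG6 (SE 0.18, adjusted p = 0.0121) and 0.90 for SNHG15 (SE 0.30, adjusted p = 0.0421). SNHG5 had a log2 effect of 1.00 and an adjusted p of 0.0821. GAS5, SNHG1, SNHG7 and SNHG12 had effects between -0.30 and 0.13. With the untreated libraries of days 0, 3 and 7 taken as 1 group of controls, SNHG16 (0.85, adjusted p = 0.00133), SNHG6 (0.62, adjusted p = 0.00539) and SNHG8 (0.89, adjusted p = 0.0144) were still called, ZFAS1 (0.54, adjusted p = 0.073) and SNHG15 (0.40, adjusted p = 0.403) were not, and 43.4% of all genes were. The 3 called under both controls were the members higher in both day-7 topotecan libraries than in every other library. That order is read from the same values as the calls and adds no support to them. Over the 11332 genes 29.0% had it, a share near that of the members.

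On day 3 the same model called 0 members and 2 of 14836 genes (0.0135%). At an unadjusted p under 0.05, 1704 genes passed (11.5%), among them 6 members: SNHG1 (log2 effect -1.06, adjusted p = 0.28), SNHG8 (-0.77, adjusted p = 0.29), SNHG15 (-0.91, adjusted p = 0.331), SNHG16 (-0.40, adjusted p = 0.346), SNHG12 (-0.75, adjusted p = 0.382) and ZFAS1 (-0.49, adjusted p = 0.43). The change of the topotecan effect from day 3 to day 7 was called in 5 members, where 28.5% of genes were, with log2 differences of 1.98 for SNHG8 (adjusted p = 0.00302), 1.80 for SNHG15 (0.0139), 1.53 for SNHG16 (0.00197), 1.42 for ZFAS1 (0.00928) and 0.96 for SNHG6 (0.0233). Part of each difference is the fall of the untreated library from day 3 to day 7. By sign alone, 7 members were lower than untreated in both regimens on day 3 and higher in both on day 7 (24.3% of the 11332 genes). They were the 5 above with GAS5 and SNHG5. Counting intervals included 1 for GAS5 in both regimens on day 7, and for GAS5, SNHG5 and SNHG6 in CONV-TOPO on day 3.

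A model with treatment and day as separate terms, whose error is the change of an effect between days, called 0 members and 0 of 14836 genes (0%, limma) in any of its 3 comparisons. At an unadjusted p under 0.05, 527 genes (3.55%) passed for EE-TOPO over control, 257 (1.73%) for CONV-TOPO over control and 134 (0.903%) between the regimens, with 0 members in each. On day 7 EE-TOPO and CONV-TOPO differed in 0 members by 1.5-fold, where 3.24% of genes were that much higher in EE-TOPO and 2.99% that much lower. The ratios whose intervals excluded 1 were those of SNHG15 at 1.496 (95% interval 1.26 to 1.77), SNHG1 at 1.29 (1.12 to 1.49), ZFAS1 at 1.204 (1.12 to 1.30), SNHG6 at 1.15 (1.04 to 1.27) and SNHG16 at 0.898 (0.868 to 0.929). GAS5, at 0.859, had an interval of 0.522 to 1.40.

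The choice of scaling and transcript length moved with the day-7 result. TMM scaling raised the day-7 treated libraries, whose median gene was at a log2 ratio of -0.25 (EE-TOPO) and -0.28 (CONV-TOPO) by library totals and -0.03 after scaling, so with library totals the members' median log2 ratio in CONV-TOPO was 0.41 in place of 0.66, and 3 members in place of 6 were at least 1.5-fold higher and 1 was as much lower. A smooth trend over gene span, spliced length and GC content held 32.7% of the variance of all gene ratios in EE-TOPO on day 7 and 34.2% in CONV-TOPO, and short transcripts were relatively higher (rank correlation with length -0.22 and -0.23 across 11097 genes, which are not independent). With that trend removed, the members' median was 0.52 in place of 0.96 in EE-TOPO and 0.22 in place of 0.66 in CONV-TOPO, and SNHG16, the longest member, kept log2 ratios of 1.05 and 1.21. SNHG8, the member with the shortest gene span, had 0.53 and 0.39. In each regimen 6 members were then higher and 4 lower than untreated, which is not far from an even split. Before the trend was removed, 48.4% of the 11332 genes were higher in EE-TOPO and 48.6% in CONV-TOPO. Shares of all genes with the trend removed, or by library totals, are not given here. With the trend removed, only SNHG5 (0.98) and SNHG16 stayed at least 1.5-fold higher in CONV-TOPO, while SNHG1 (-0.72), SNHG7 (-0.79) and SNHG12 (-0.61) were as much lower. In EE-TOPO, SNHG5 (0.83), SNHG15 (0.69), SNHG16 and ZFAS1 (0.80) passed that fold, and SNHG7 (-0.68) was as much lower. On day 3 the median with the trend removed was -0.70 in EE-TOPO and -0.20 in CONV-TOPO. The part of fragment length or RNA quality in these values was not tested.

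The members did not move as 1 block across the 7 libraries. Of the 45 pairs, 12 had a Pearson r of at least 0.8 on log2(scaled CPM + 1) and 9 had an r below 0, with a median of 0.48, over 7 libraries that share days and controls. The strongest pairs were SNHG6 with SNHG16 (0.93), SNHG8 with ZFAS1 (0.91) and SNHG1 with SNHG12 (0.88). SNHG12 and SNHG16 had the lowest r, at -0.28. GAS5, SNHG1 and SNHG12 were highest in untreated day 3 and were not called under topotecan on day 7. SNHG6 and SNHG16 were highest in topotecan on day 7 and had no untreated day-3 maximum. SNHG5, SNHG8, SNHG15 and ZFAS1 had an untreated day-3 maximum and were also at least 1.5-fold above untreated on day 7 in both regimens.

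Among 9873 other genes with a mean of at least 10 CPM, those whose levels were most like the mean standardized profile of the members were ZBTB17 (r = 0.99), KMT5A (0.97), RAB14 (0.97), IP6K2 (0.96) and LINC00857 (0.96), over 7 libraries. ZBTB17, which encodes the zinc finger protein MIZ1, was at 34.9 scaled CPM in untreated day 3 and in EE-TOPO day 7, and at 22.5 to 23.7 in untreated days 0 and 7 and EE-TOPO day 3. EXOC6B (r = -0.99), SLC20A1 (-0.99), a phosphate transporter, and FHOD3 (-0.97) were most opposed. SLC20A1 was at 247 scaled CPM in untreated day 3 beside 347 on day 0. These r describe 7 libraries with shared days and controls.

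A gene starting on the other strand within 1000 bases was found for 3 members. SLC3A2, the heavy chain of an amino acid transporter, begins 223 bases from SNHG1. In untreated spheroids it was at 189, 269 and 150 scaled CPM on days 0, 3 and 7, and on day 7 it was 3.71-fold above untreated in EE-TOPO and 2.44-fold in CONV-TOPO, where SNHG1 was at 0.920 and 0.712. ZNFX1, an antiviral helicase gene, begins 120 bases from ZFAS1. On day 3 it was 1.70-fold above untreated in EE-TOPO and 1.29-fold in CONV-TOPO, where ZFAS1 was at 0.591 and 0.852. ZBTB37, 801 bases from GAS5 and overlapping it in RefSeq, was 2.05-fold higher in EE-TOPO on day 3, where GAS5 was at 0.357. ZBTB37 was low throughout, at 1.10 to 7.83 scaled CPM. Other comparisons had both on the same side of the control. In EE-TOPO, SLC3A2 and SNHG1 were both below it on day 3 (0.929 and 0.355), and ZNFX1 and ZFAS1 both above it on day 7 (1.32 and 2.11). ZNFX1 was also highest on day 3 among untreated days, at 123 scaled CPM beside 56.3 on day 0 and 84.3 on day 7. In the remaining comparisons with the untreated library of the same day, host and neighbour lay on opposite sides.

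**Figure D3:**
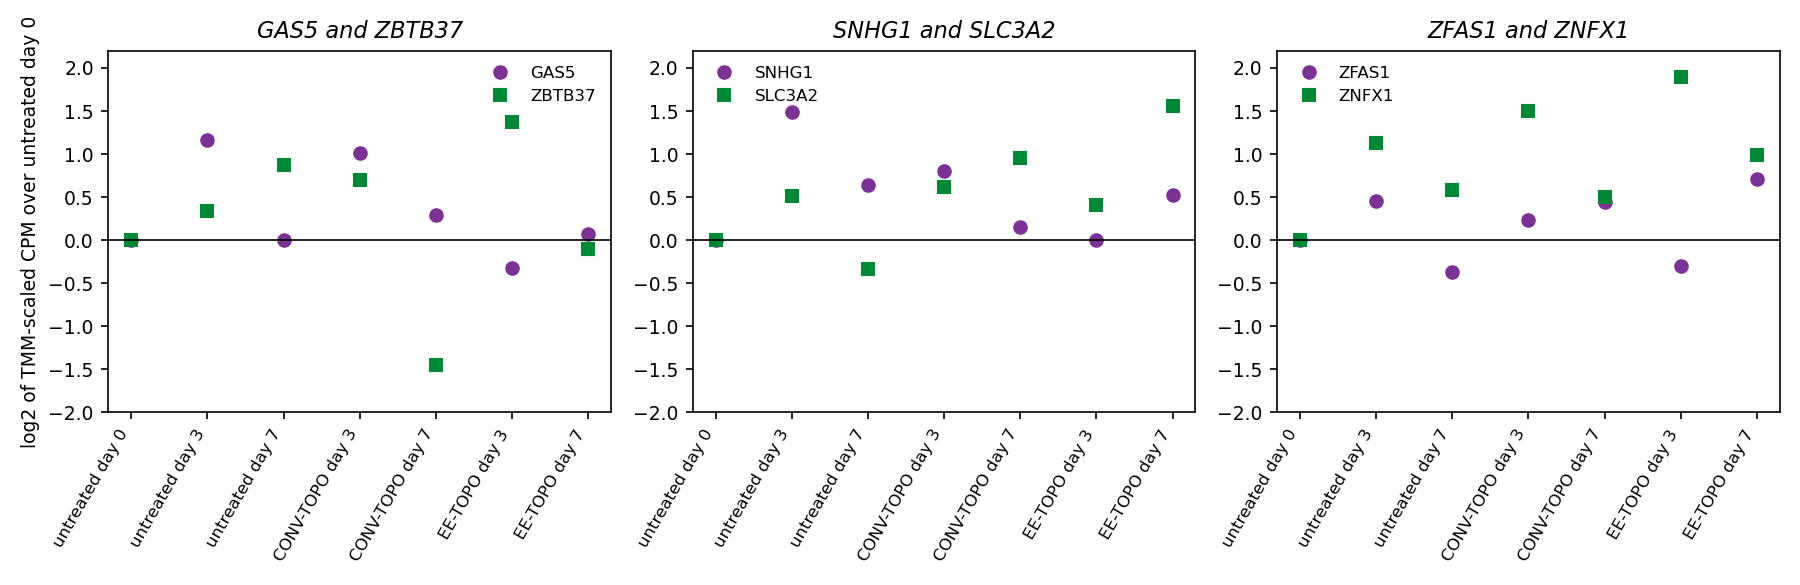
Log2 of TMM-scaled CPM relative to untreated day 0 (y axis) in the 7 libraries (x axis) for 3 snoRNA hosts (circles) and the gene that starts beside each on the other strand (squares), 1 library per point. In EE-TOPO day 3 the squares of ZBTB37 and ZNFX1 lie far above the circles of GAS5 and ZFAS1, and in EE-TOPO day 7 SLC3A2 lies above SNHG1.

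Of 15 other noncoding hosts tested, the model over regimens called 3 higher and 3 lower on day 7, shares near those over all 14836 genes (18.6% higher and 20.1% lower), beside which the day-7 counts of the lists that follow are also to be read. SNHG32, host of SNORD48 and SNORD52, was 3.46-fold above untreated in EE-TOPO and 2.37-fold in CONV-TOPO (log2 effect 1.5, adjusted p = 0.00402), and SNHG11 was 2.62-fold and 1.97-fold higher (1.03, adjusted p = 0.0177). EPB41L4A-AS1 was the third (0.84, adjusted p = 0.0358). SNHG14, the very long imprinted host of the SNORD115 and SNORD116 clusters, was at 0.115 and 0.166 of untreated (-2.62, adjusted p = 0.000316), and SNHG3 was at 0.523 in both (-0.90, adjusted p = 0.00834). SNHG4 was the third of those lower (-1.42, adjusted p = 0.00712). On day 3 this list lay on the same side as the members in EE-TOPO, with 7 of the 12 genes with a mean of at least 5 CPM at least 1.5-fold lower and a median log2 ratio of -0.66.

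Protein-coding hosts, which are mostly ribosomal protein and translation factor genes, did not share the untreated day-3 maximum of the members, since 30 of 37 were lower on day 3 than on day 0 (52.2% of the 11332 genes) and the median log2 ratio was -0.29. In EE-TOPO on day 3, 36 of 37 were below untreated (56.4% of genes), with a median of -0.47, and 10 were at least 1.5-fold lower. On day 7, 12 of 37 were called higher and 3 lower (18.6% and 20.1% of all genes). RPLP2, a protein of the ribosomal stalk, was 2.51-fold and 2.71-fold above untreated in EE-TOPO and CONV-TOPO (adjusted p = 0.000543), and RPL10 was 2.30-fold and 2.31-fold higher (adjusted p = 0.00106). TAF1D was at 0.645 and 0.699 (adjusted p = 0.0436), and NOP58, a core box C/D protein that is also a host, was at 0.755 and 0.695 (adjusted p = 0.0451).

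Of 17 snoRNP proteins and assembly factors, 8 were called higher and 1 lower on day 7 (18.6% and 20.1% of all genes). GAR1, a core H/ACA protein, was 2.23-fold and 2.15-fold above untreated (adjusted p = 0.00306), and RUVBL2, an ATPase of the assembly complex, 1.87-fold and 2.06-fold. NAF1, at 0.899 in EE-TOPO and 0.668 in CONV-TOPO, did not pass. The gene lower in the test was NOP58, and the medians of the list, 0.36 in EE-TOPO and 0.14 in CONV-TOPO, were below those of the members.

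Nonsense-mediated decay factors, which degrade the spliced hosts, had no common direction. On day 7, 3 of 14 were called higher and 1 lower (18.6% and 20.1% of all genes). MAGOH, of the exon junction complex, was 2.33-fold and 2.04-fold above untreated (adjusted p = 0.00819) and EIF4A3, of the same complex, 1.58-fold and 1.61-fold (adjusted p = 0.00393). SMG1, the kinase that activates UPF1, was at 0.249 and 0.313 (adjusted p = 0.000282), and UPF2 was at 0.690 and 0.696 without passing. Protein-coding mRNAs known as decay targets lay with the members on day 7, with 3 of 6 called higher and 0 lower. UPP1 was 4.78-fold and 2.88-fold above untreated (adjusted p = 0.000896), and ATF3, a stress transcription factor, 3.82-fold and 1.89-fold (adjusted p = 0.031). ATF3 was 7.73-fold higher in untreated day 3 than on day 0, and on day 3 it was at 0.444 of that level in EE-TOPO and 0.222 in CONV-TOPO, so that CONV-TOPO was the lower, unlike in most members. TBL2 at 1.17 and 1.06 and ATF4 at 1.09 and 1.15 on day 7 stayed near the control.

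Of 10 cytoplasmic decay enzymes, 1 was called higher and 2 lower on day 7 (18.6% and 20.1% of all genes), with XRN1, the 5′ exonuclease, at 0.509 and 0.443 (adjusted p = 0.00209) and CNOT1 at 0.572 and 0.605 (adjusted p = 0.00355). EXOSC3, an exosome subunit, was 1.56-fold and 1.78-fold higher (adjusted p = 0.0293), and SKIV2L was at 1.11 and 1.13. Noncoding RNAs that host no snoRNA took the opposite course to the members, with 1 of 10 called higher and 7 lower on day 7. NEAT1, the scaffold of paraspeckles, was at 0.144 and 0.137 (adjusted p = 0.00015) and MALAT1 at 0.139 and 0.268 (adjusted p = 0.0013). CYTOR was the exception, at 1.87-fold and 1.85-fold (adjusted p = 0.0311), and LINC-PINT, at 0.914 and 0.570, did not pass. SNHG14, NEAT1 and MALAT1 are long, as are many genes that were lower under the length trend given above, and the part of length in these values was not tested.

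**Figure D4:**
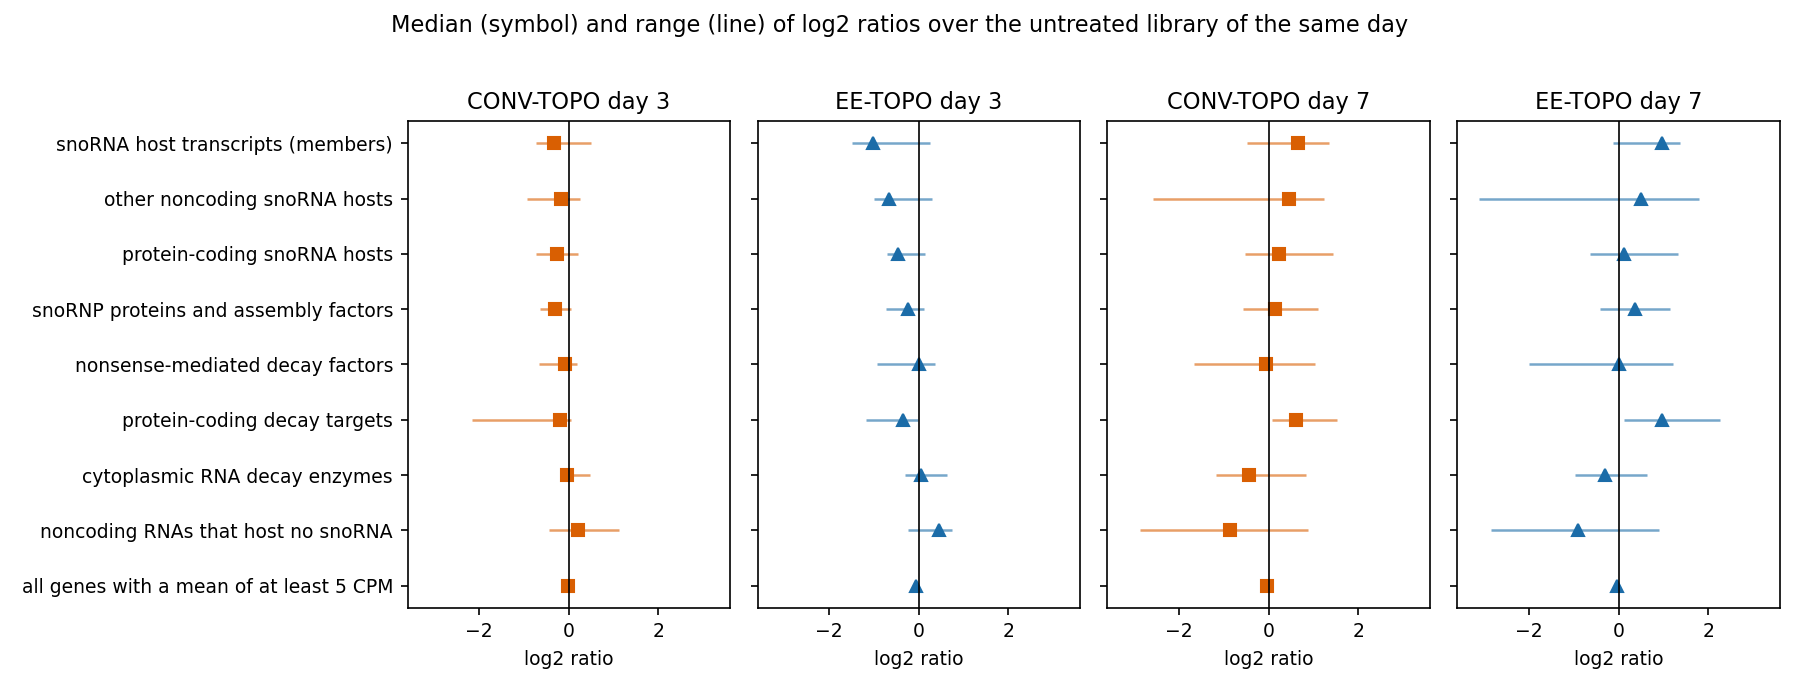
Log2 ratios of treated spheroids over the untreated library of the same day (x axis) for the snoRNA host transcripts, 7 other fixed gene lists and all 11332 genes with a mean of at least 5 CPM (y axis), for each regimen and day. Symbols are medians and lines run from the lowest to the highest gene of a list (not drawn for all genes). The members lie lowest in EE-TOPO on day 3 (-1.02) and on the higher side on day 7 (0.96 and 0.66), opposite to noncoding RNAs that host no snoRNA (-0.90 and -0.86 on day 7).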

How the data were processed

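PC-3 spheroid RNA was made into TruSeq RNA v2 libraries, which do not keep strand, and, per the study's methods, reads were aligned to hg38 with STAR. The authors deposited CPM per gene, normalized to library totals, with an offset of 0.0001 that was subtracted here. Partek is named in the submitters' processing notes, and annotation and strand setting are not given in the sources used here. The lowest steps of CPM gave the depth: 89.1% to 90.9% of low values were whole reads (tolerance 0.02), so a test for counts was not used, although the design allowed one. TMM factors and exact conditional binomial 95% intervals, which cover counting error only, were computed from these estimated reads. limma 3.58.1 in R 4.3.3 was run on log2(TMM-scaled CPM + 1), with a mean-variance trend and Benjamini-Hochberg adjustment, on 14836 genes with at least 0.529 CPM (10 reads at the median depth) in 2 libraries. Both models had 2 residual degrees of freedom and were run on simulated data with the same effect in both regimens and on both days. That simulation did not cover a deviating untreated library or an effect that changes between days. Groups came from sample titles, and 3 day-1 libraries were not analysed here. Members and lists were chosen with earlier results of these data known. Named genes were the members, the 2 highest and 2 lowest of each list on day 7, the 5 most and 3 least similar profiles and divergent neighbours. Others, such as EPB41L4A-AS1 and SNHG4, were picked after their values were seen. Alternatives covered scaling, pseudocount, filter, trend, baseline, single libraries and pooled controls. Some marker genes are not reported here.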

Additional observations from a re-analysis of the deposited data

Results flagged for a closer look

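The effect of topotecan differed between day 3 and day 7 for 5 of the 10 snoRNA hosts by the model over regimens (limma, adjusted p between 0.00197 and 0.0233). The same change was called in 28.5% of the 14836 genes tested, so it was common beyond the members. The day-7 effect minus the day-3 effect was 0.96 on the log2 scale for SNHG6, 1.98 for SNHG8, 1.80 for SNHG15, 1.53 for SNHG16 and 1.42 for ZFAS1. Both regimens were below untreated on day 3 and above it on day 7 in each of these genes, although the interval of SNHG6 in CONV-TOPO on day 3 included 1. The untreated library itself changed between the days: its day-7 to day-3 ratio was 0.903 for SNHG6, 0.516 for SNHG8, 0.364 for SNHG15, 0.767 for SNHG16 and 0.562 for ZFAS1. In the fit with the untreated libraries pooled, day-7 treated libraries minus day-3 treated libraries, a difference without untreated libraries whose error nevertheless includes the spread among the 3 of them, was called for SNHG16 (1.15, adjusted p = 0.00042), SNHG6 (0.82, adjusted p = 0.00189) and SNHG8 (1.09, adjusted p = 0.00802), and not for ZFAS1 (0.60) or SNHG15 (0.43). All genes were called for that difference in a larger share than the members were (counts in the last paragraph). The part of the untreated day-3 library was not tested further, since there is 1 such library.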

How the results depend on the processing

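No paired analysis was possible because the labels give no replicate numbers and each treatment and day has 1 library. Every statement rests on 1 untreated library per day, and single-library intervals leave out biological spread.

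By library totals the members' median log2 ratio was 0.41 for CONV-TOPO on day 7, and that of every treated library over the untreated library of its day kept its direction. Removing the trend with span, length and GC content gave -0.70 for EE-TOPO on day 3, 0.52 and 0.22 for EE-TOPO and CONV-TOPO on day 7, and -0.64 for untreated day 7 over day 3. Untreated day 7 over day 0 then turned to 0.087. Against untreated day 0, EE-TOPO on day 3 was at -0.043 and CONV-TOPO turned to 0.62. Against the mean of the untreated libraries, EE-TOPO was at -0.37 on day 3 and 0.57 on day 7, and CONV-TOPO at 0.13 (turned) and 0.41. Without members that overlap another gene, the day-7 medians were 1.15 and 1.01. Treated day 7 over treated day 3 was at 0.96 in EE-TOPO (0.39 without the trend) and 0.04 in CONV-TOPO (-0.53 without the trend and -0.24 by library totals).

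Counts of members past 1.5-fold moved as well. By library totals, CONV-TOPO on day 7 had 3 higher (6 as reported) and 1 lower (0), and EE-TOPO over CONV-TOPO on day 7 had 1 higher (0). Shares of all genes by library totals are not given here. Against untreated day 0, EE-TOPO on day 3 had 1 higher and 0 lower (0 and 7), and CONV-TOPO had 5 higher and 0 lower (0 and 3). Of the 11332 genes, 10.1% were as much higher and 9.94% as much lower in EE-TOPO, and 8.52% and 7.20% in CONV-TOPO. Against the mean of the untreated libraries, EE-TOPO on day 3 had 2 lower, CONV-TOPO had 1 higher and 0 lower on day 3, and 2 higher and 1 lower on day 7. Past 2-fold, the members lower were 0 in CONV-TOPO on day 3, 2 in EE-TOPO against CONV-TOPO on day 3 and 4 in untreated day 7 against day 3, and those higher were 3 in CONV-TOPO on day 7 and 0 in untreated day 7 over day 0 or day 3. Of the 11332 genes, 49, 25 and 119 were as much lower and 952, 151 and 92 as much higher, in the same order. CONV-TOPO day 7 over its day 3 went from 3 higher and 3 lower to 1 and 0, and over the 11332 genes from 2339 and 2458 to 825 and 972.

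In the model with treatment and day, fits of 4 libraries called 34 genes (EE-TOPO and untreated), 9 (CONV-TOPO and untreated) and 73 (both regimens), with 0 members in each. Leaving out 1 day moved the members' median effect between -0.95 and 0.89 for EE-TOPO, -0.33 and 0.63 for CONV-TOPO, and -0.54 and 0.14 between regimens, so each sign was that of the day kept.

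In the model over regimens, the day-3 calls over all genes were 1 with a pseudocount of 0.1, 4 at a mean of at least 5 CPM, and 0 with no filter, with no mean-variance trend or with pooled untreated controls, an alternative chosen after seeing the data. Leaving out 1 regimen moved the day-3 median effect between -0.95 and -0.33. With no filter, day 7 gave 3662 calls among 18144 genes with 2 of the 10 members, and the change between days 1480 with 2. With no mean-variance trend that change gave 2781 calls among 14836 genes with 3 members. Pooled controls gave a day-3 median of -0.046, with SNHG5 (0.23) and SNHG12 (0.20) turned. They gave a day-7 median of 0.49 with 3 members called, GAS5 (-0.17) and SNHG12 (-0.20) turned. For the change, pooled controls gave 6704 calls among 14836 genes, with 3 of the 10 members and a median of 0.39. By library totals, GAS5 (-0.038), SNHG7 (-0.16) and SNHG12 (-0.18) turned on day 7, all of them uncalled. SNHG15 lost its day-7 call under 5 alternatives (library totals, a pseudocount of 5, no filter, no mean-variance trend, pooled controls), ZFAS1 under 2 (no filter, pooled controls) and SNHG6 under 1 (no filter). SNHG16 and SNHG8 kept theirs under all alternatives run. The causes were not tested.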
